A study of Mus musculus with 6 samples.

Results

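The genes described are 10 of the 23935 gene symbols in the count and TPM tables of the series: the matrix metalloproteinases (MMPs) Mmp2, Mmp12, Mmp13, Mmp14 and Mmp19, the tissue inhibitors of metalloproteinases (TIMPs) Timp1, Timp2 and Timp3, and Plau and Plaur, which encode the protease urokinase and its receptor. They were chosen by symbol, as proteases of macrophages, their inhibitors and the urokinase system, and all 10 had a row in both tables and passed the filter on low counts. The libraries came from bone marrow-derived macrophages (BMDMs), which are macrophages grown from marrow of the femur and tibia, here in DMEM containing 10% FBS, 1% P/S and M-CSF for 7 days. Cells of both genotypes were treated for 16 h with 10 ng/mL LPS, a component of the outer membrane of bacteria, together with IFN-γ at 25 ng/mL, so that every comparison was made within this treatment and no untreated library was analysed here. PKM2ΔMAC mice carried floxed PKM2 alleles and LysM-Cre, which expresses Cre from the Lyz2 locus and is active in myeloid cells, not in macrophages alone. Their control littermates, PKM2FL/FL, carried the floxed alleles without Cre. There were 3 libraries of each genotype, from mice numbered 1 to 3, and these numbers are the replicates named below. The age of the mice was not given in the labels.

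MMPs are zinc-dependent endopeptidases that cut collagens, elastin and other proteins of the extracellular matrix, and are made as inactive precursors. TIMPs bind the active site of MMPs and block them, and TIMP2 can also help the membrane-bound MMP14 to activate pro-MMP2. Urokinase turns plasminogen into plasmin, which degrades fibrin and can activate some MMPs, and its receptor holds it at the cell surface. In macrophages this set is known from tissue remodelling and from the repair of injured tissue.

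The 5 MMPs share a catalytic site in which 3 histidines hold the zinc ion, and the coding bases of this site are shown. They were read from the GENCODE M21 transcript with the longest coding sequence of each gene, on GRCm38, the plus strand, 5′ to 3′. Capitals mark the codons of the 3 histidines.
Mmp2 (chr8:92839279-92839311): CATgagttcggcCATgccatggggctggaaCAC
Mmp12 (chr9:7352914-7352946): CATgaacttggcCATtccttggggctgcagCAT
Mmp13 (chr9:7276573-7276605): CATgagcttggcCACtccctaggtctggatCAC
Mmp14 (chr14:54437627-54437659): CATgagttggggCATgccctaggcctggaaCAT
Mmp19 (chr10:128795673-128795705): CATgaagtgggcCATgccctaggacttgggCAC
Each site covers 33 bases within 1 exon, which is exon 8 of 13 in Mmp2, exon 5 of 10 in Mmp12, Mmp13 and Mmp14, and exon 5 of 9 in Mmp19. All 5 genes had the same base at 19 of the 33 positions, and any pair of them shared between 23 and 27. Sequences of the encoded proteins were not used here.

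The genes lie on 7 chromosomes. On GRCm38, Mmp13 (chr9:7272514-7283331) and Mmp12 (chr9:7344381-7369499) are neighbours on the plus strand, with 61.1 kb and 0 protein-coding genes annotated between them. Mmp2 lies at chr8:92827291-92853420, Mmp14 at chr14:54431612-54445364, Mmp19 at chr10:128790910-128800824, Timp3 at chr10:86300372-86349506, Timp1 at chrX:20870166-20874735, Plau at chr14:20836660-20843385 and Plaur at chr7:24462484-24475968, all on the plus strand, and Timp2 lies at chr11:118301069-118355740 on the minus strand. Other annotated genes overlap 5 of the members. Timp1 lies within Syn1 and Timp2 holds Cep295nl, in both cases with no exon shared. An exon of Syn3, on the opposite strand, touches Timp3, but Syn3 had a mean of 0.281 CPM (counts scaled to the same library size with TMM factors). Tmem198b, with a mean of 12.9 CPM, and Gm47093, with a mean of 0.0160 CPM, touch exons of Mmp19 from the opposite strand, and Mmp1b, not analysed here, touches an exon of Mmp12. Since the strandedness of the counting was not given in the sources used here, reads of such overlapping exons cannot be told apart.

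Promoter windows of 300 bases (250 before and 50 after the start) from RefSeq on GRCm38.p6 were matched by symbol for 7 of the 10 genes: Mmp12, with 2 starts, Mmp13, Mmp14, Timp1, Timp2, Timp3 and Plaur. No entry was matched for Mmp2, Mmp19 and Plau. The windows were searched on both strands for TGANTCA, a motif of AP-1 factors that reads the same on both strands, and for AGGAAG, the PEA3 motif of Ets factors, because promoters of inducible MMPs are known for these motifs. TGANTCA was found in 3 of the 8 windows, those of Mmp13, of the downstream start of Mmp12 and of Plaur, and in 7.81% of all 32851 windows. AGGAAG was found in 6 of the 8 windows and in 35.4% of all. The 150 bases before the start are shown for Mmp12 (upstream start) and Mmp13, the neighbouring pair, and for Timp1, whose libraries separated by genotype in the results that follow, with the matches to either motif in capitals.
Mmp12 (chr9:7344247-7344396, plus strand): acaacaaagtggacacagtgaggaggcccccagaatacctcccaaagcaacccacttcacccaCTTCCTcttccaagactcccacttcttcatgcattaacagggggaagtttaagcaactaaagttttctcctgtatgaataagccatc
Mmp13 (chr9:7272364-7272513, plus strand): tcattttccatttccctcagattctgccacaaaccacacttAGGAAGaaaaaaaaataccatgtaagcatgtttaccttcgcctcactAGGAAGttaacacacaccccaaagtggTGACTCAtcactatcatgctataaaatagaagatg
Timp1 (chrX:20870016-20870165, plus strand): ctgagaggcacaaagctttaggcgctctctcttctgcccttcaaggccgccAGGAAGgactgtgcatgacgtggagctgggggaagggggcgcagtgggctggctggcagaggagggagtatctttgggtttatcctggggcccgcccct
In Mmp13 the AP-1 match began 35 bases before the start and the PEA3 matches began 109 and 62 bases before it. In Mmp12 the PEA3 match began 87 bases before the upstream start, and the AP-1 match of its second window began 44 bases before the downstream start. In Timp1 the PEA3 match shown began 99 bases before the start. These matches describe letters in the windows, and no binding was measured.

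Total counts per library were between 49957449 and 54524651, and the members had between 1842 and 50760 counts in each library. Pkm, the targeted gene, had 1714, 1698 and 1705 CPM in PKM2FL/FL and 987, 1212 and 1005 CPM in PKM2ΔMAC. Its log2 fold change of -0.68 (SE 0.077, edgeR adjusted p = 0.0091) was in the direction of the genotype labels, although the gene count does not separate PKM2 from PKM1 transcripts. Lyz2, which carries the Cre, had between 17006 and 18721 CPM in PKM2FL/FL and between 24.3 and 31.8 CPM in PKM2ΔMAC. PKM2ΔMAC replicate 2 stood apart: the chi-square of counts per degree of freedom was 43.1 and 53.8 against the other PKM2ΔMAC libraries and between 7.55 and 13.7 among the other pairs of libraries of the same genotype. Each member is given with and without this library. Of the 8 macrophage markers, all were detected in every library, and without Lyz2 they summed to between 6745 and 7001 CPM in PKM2FL/FL and between 6719 and 7740 CPM in PKM2ΔMAC. The 8 stromal cell markers were not absent, and summed to 5734, 5850 and 5242 CPM in PKM2FL/FL and 6584, 5223 and 6547 CPM in PKM2ΔMAC, mostly through the collagen genes Col1a1, Col1a2 and Col3a1, with 0 called by edgeR, 2 at an unadjusted p under 0.05 and 1 called by DESeq2. In bulk RNA, fewer cells of a type and less RNA per cell cannot be told apart, and this holds for every value below.

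To compare the genes with one another, the deposited TPM values (which correct for transcript length as well as library size) were ordered by their mean in each genotype. In PKM2FL/FL BMDMs Timp2 was the most abundant member, at 817 ± 25.8 TPM (SD, n = 3), above every other member in all 3 libraries. Timp1 followed at 305 ± 4.83 TPM and Mmp12 at 279 ± 68.1 TPM, and their libraries overlapped. Mmp14 (146 ± 3.62 TPM) and Mmp13 (128 ± 28.4 TPM) also overlapped with each other, and both lay below Mmp12 in every library. Timp3 (90.9 ± 6.45 TPM) and Mmp2 (88.1 ± 2.72 TPM) were not separated. Plau (62.1 ± 9.13 TPM), Plaur (56.2 ± 7.14 TPM) and Mmp19 (53.2 ± 5.41 TPM) were the lowest, below Mmp2 in every library, and each overlapped with the next in this order. The order of PKM2ΔMAC BMDMs was close to this, with Timp2 at 795 ± 176 TPM again highest and Mmp19 at 54.3 ± 10.8 TPM again lowest. Plau stood at 103 ± 28.2 TPM there, between Mmp13 at 150 ± 39.2 TPM and Mmp2 at 92.5 ± 10.5 TPM, and its libraries overlapped with those of both. Mmp12 (348 ± 118 TPM) and Timp1 (345 ± 11.4 TPM) again overlapped.

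**Figure D1:**
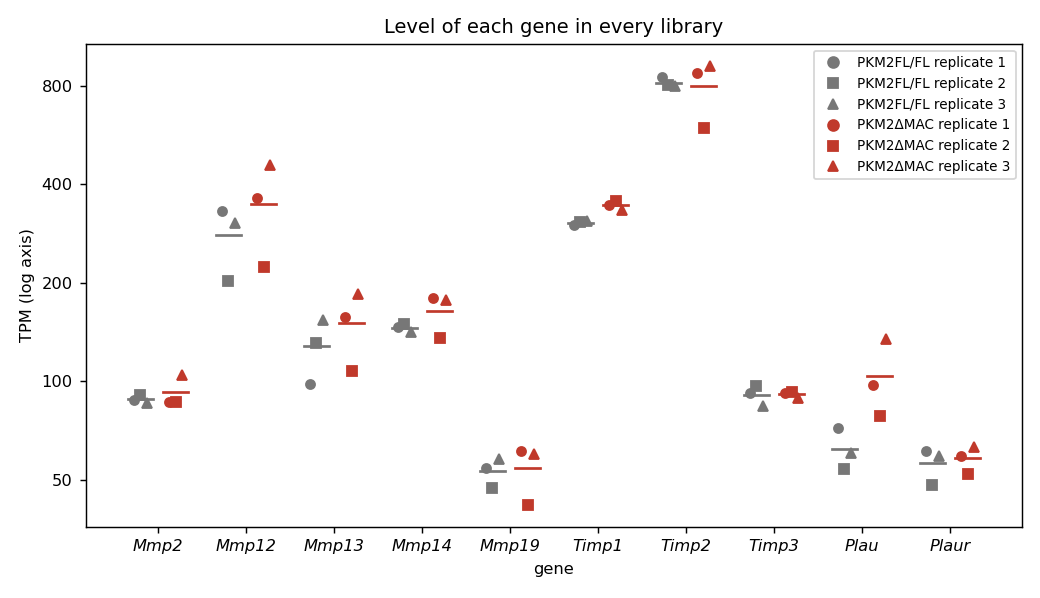
TPM of each of the 10 genes (x axis) on a log axis, with 1 point for each library, circles, squares and triangles for replicates 1, 2 and 3, grey for PKM2FL/FL and red for PKM2ΔMAC, and lines at the genotype means. Timp2 is highest in all 6 libraries, and the PKM2ΔMAC square lies lowest of its genotype for 7 of the 10 genes.

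Whether the expression of these genes differed between the genotypes was asked with edgeR's quasi-likelihood test. It was fitted over 16516 genes and adjusted by Benjamini-Hochberg over all of them. The genotypes differed in PKM2, in the presence of Cre and in the level of Lyz2, and effects of these cannot be told apart here. None of the 10 members passed an adjusted p of 0.05, whereas 68 of the 16516 genes tested did (0.412%). DESeq2 and limma-trend on TPM also called 0 of the 10. At an unadjusted p of 0.05, the members Plau and Timp1 passed, both higher in PKM2ΔMAC, against 5.24% of all genes tested that passed in that direction. The fold changes of the members had a median of 0.05 on the log2 scale, from -0.10 for Timp2 to 0.67 for Plau, and the median of all genes tested was -0.00021. Timp1 was the sole member whose genotypes did not overlap in CPM, with PKM2ΔMAC above, and this was so for 8.92% of all genes tested.

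**Figure D2:**
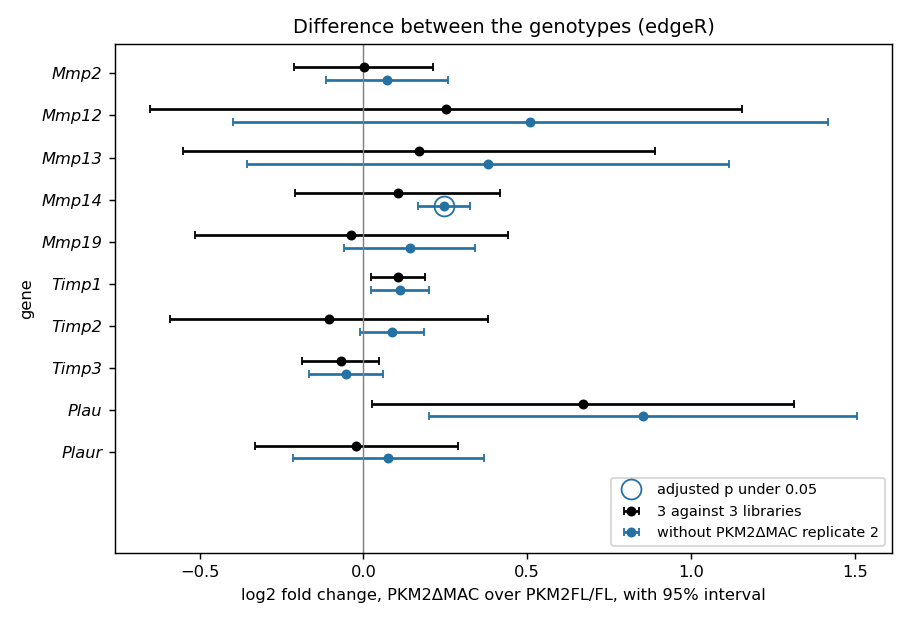
Log2 fold change of PKM2ΔMAC over PKM2FL/FL for each gene (points) with its 95% interval (bars) from edgeR, in black for all 6 libraries and in blue without PKM2ΔMAC replicate 2. The intervals of Timp1 and Plau lie above 0 in both fits, and the circle marks Mmp14 in the fit without that library, the sole adjusted p under 0.05.

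Among the secreted MMPs, Mmp12 encodes macrophage elastase and was the most abundant. Its values were 691, 412 and 632 CPM in PKM2FL/FL replicates 1, 2 and 3, and 725, 423 and 920 CPM in those of PKM2ΔMAC. Replicate 2 was the lowest library of both genotypes, and the genotypes overlapped. The log2 fold change was 0.25 with a SE of 0.35 and a 95% interval from -0.65 to 1.16 (edgeR adjusted p = 0.87), an interval that spans differences in either direction. Mmp13, collagenase 3, had 75.3, 98.9 and 118 CPM in PKM2FL/FL and 116, 75.5 and 137 CPM in PKM2ΔMAC. Its lowest libraries were PKM2FL/FL replicate 1 and PKM2ΔMAC replicate 2, which had almost the same value (log2 fold change 0.17, SE 0.28, 95% interval -0.55 to 0.89, edgeR adjusted p = 0.90). Without PKM2ΔMAC replicate 2 the log2 fold changes were 0.51 for Mmp12 and 0.38 for Mmp13 (edgeR adjusted p = 0.61 and 0.64). Without PKM2ΔMAC replicate 3, the highest library of both genes, the log2 fold changes were -0.012 for Mmp12 and -0.025 for Mmp13.

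Mmp2 encodes gelatinase A, which is also a typical product of fibroblasts. It had 85.4, 86.4 and 82.7 CPM in PKM2FL/FL and 80.2, 76.4 and 98.0 CPM in PKM2ΔMAC. The PKM2FL/FL libraries lay inside the range of the PKM2ΔMAC libraries, and the log2 fold change was 0.00076 with a SE of 0.090 and an interval from -0.21 to 0.21 (edgeR adjusted p = 0.999). Mmp2 therefore had the narrowest interval of the 5 MMP members, which leaves out differences over 0.21 in either direction, and its log2 fold change was 0.07 without PKM2ΔMAC replicate 2 (edgeR adjusted p = 0.79). Mmp2 was lowest of the 6 libraries in PKM2ΔMAC replicate 2 and highest in PKM2ΔMAC replicate 3. Of the 8 stromal markers, 3 were lowest of the 6 libraries in PKM2ΔMAC replicate 2 and 5 were highest in PKM2ΔMAC replicate 3, and 1, Dcn, was both, while Pdgfrb was highest in PKM2ΔMAC replicate 2. The shares of all genes tested at these extremes are not given here, and the part of stromal cells in the level of Mmp2 was not tested.

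Mmp14 encodes the membrane-type protease MT1-MMP. Its 3 PKM2FL/FL libraries were close to each other at 251, 250 and 242 CPM, whereas PKM2ΔMAC had 294, 212 and 292 CPM. Replicates 1 and 3 of PKM2ΔMAC lay above all PKM2FL/FL libraries and replicate 2 below all of them. With all 6 libraries the log2 fold change was 0.10 (SE 0.13, 95% interval -0.21 to 0.42, edgeR adjusted p = 0.85). Without PKM2ΔMAC replicate 2 it was 0.25 (SE 0.036, 95% interval 0.17 to 0.32, edgeR adjusted p = 0.0056), in a fit that called 299 of 16913 genes (1.77%). Omitting replicate 1 or replicate 3 of that genotype instead gave 0.026 or 0.031 (edgeR adjusted p = 0.97 and 0.96). Over the 17 alternatives the adjusted p of Mmp14 was between 0.0056 and 0.97, so that the call rested on leaving out this library. Mmp19, the least abundant of the 5 MMP members, had 55.2, 47.1 and 58.8 CPM in PKM2FL/FL and 59.5, 38.8 and 58.8 CPM in PKM2ΔMAC. Replicate 2 was again the lowest of both genotypes, and the log2 fold change was -0.04 with a SE of 0.19 (95% interval -0.51 to 0.44, edgeR adjusted p = 0.97), and 0.14 without PKM2ΔMAC replicate 2 (edgeR adjusted p = 0.57).

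Of the inhibitors, Timp1 had the smallest spread of all members. Its values were 76.6, 76.8 and 78.4 CPM in PKM2FL/FL and 84.6, 82.7 and 82.1 CPM in PKM2ΔMAC. All 3 PKM2ΔMAC libraries lay above all 3 PKM2FL/FL libraries, including replicate 2, by 1.08-fold in the means. The log2 fold change was 0.11 with a SE of 0.036 and an interval from 0.02 to 0.19, with an unadjusted p of 0.018 and an adjusted p of 0.39 by edgeR, and the exact two-sided permutation p was 0.10, the smallest that 3 against 3 allows. In TPM the genotypes were also separate, at 299, 307 and 308 in PKM2FL/FL and 346, 356 and 333 in PKM2ΔMAC, as were those of 19.0% of all genes tested, with PKM2ΔMAC above. The TPM scale moved genes upwards in PKM2ΔMAC, with a median log2 fold change of 0.06 over all genes in the fit on log2(TPM + 1). The direction held in all 17 alternatives, in which the log2 fold change was between 0.09 and 0.18 and the adjusted p between 0.20 and 0.74. The log2 fold change was 0.11 without PKM2ΔMAC replicate 2 (edgeR adjusted p = 0.25). The difference was therefore small and did not pass the correction over all genes.

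Timp2, the most abundant member, had 951, 884 and 893 CPM in PKM2FL/FL and 938, 606 and 993 CPM in PKM2ΔMAC. PKM2ΔMAC replicate 2 stood alone at 606 CPM and the other 5 libraries lay between 884 and 993 CPM. The log2 fold change was -0.10 with all libraries (SE 0.19, 95% interval -0.59 to 0.38, edgeR adjusted p = 0.91) and 0.09 without that library (SE 0.044, 95% interval -0.0092 to 0.18, edgeR adjusted p = 0.43). Timp3, which unlike the others binds to the matrix after secretion, had 216, 222 and 196 CPM in PKM2FL/FL and 207, 197 and 200 CPM in PKM2ΔMAC. The genotypes overlapped, with a log2 fold change of -0.07 (SE 0.052, 95% interval -0.19 to 0.05, edgeR adjusted p = 0.73), and between -0.12 without PKM2FL/FL replicate 3 and -0.033 without PKM2FL/FL replicate 2 when each library was left out in turn (edgeR adjusted p = 0.75 and 0.94). Without PKM2ΔMAC replicate 2 the log2 fold change of Timp3 was -0.054 (edgeR adjusted p = 0.74). The direction of Timp3 turned in the fits on TPM, to 0.0048 and 0.0049.

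In the urokinase system, Plau, the protease, had 49.1, 36.0 and 40.9 CPM in PKM2FL/FL and 63.7, 48.7 and 88.1 CPM in PKM2ΔMAC. PKM2ΔMAC replicates 1 and 3 lay above all PKM2FL/FL libraries, and replicate 2 lay just below PKM2FL/FL replicate 1. The mean was 1.59-fold higher in PKM2ΔMAC, with a log2 fold change of 0.67, a SE of 0.25 and an interval from 0.02 to 1.31 (edgeR p = 0.044, adjusted p = 0.49), and the exact two-sided permutation p was 0.20. In the deposited TPM values the genotypes did not overlap, with 71.9, 53.9 and 60.3 in PKM2FL/FL and 97.6, 78.5 and 134 in PKM2ΔMAC. The same was so for 19.0% of all genes tested on this scale, as given for Timp1, against 8.92% in CPM. Leaving out each library in turn gave log2 fold changes between 0.42 and 0.85, all positive and the highest without PKM2ΔMAC replicate 2 (edgeR adjusted p = 0.28), and the adjusted p was between 0.28 and 0.79 over the 17 alternatives. Plau thus had the largest fold change of the members and a direction that held in all 17 alternatives, but none of them called it.

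Plaur, the receptor, had 46.3, 35.4 and 44.4 CPM in PKM2FL/FL and 42.7, 35.8 and 45.9 CPM in PKM2ΔMAC. Replicate 2 was the lowest library of both genotypes, and the values of the genotypes lay in the same range (log2 fold change -0.02, SE 0.13, 95% interval -0.33 to 0.29, edgeR adjusted p = 0.98), with a log2 fold change of 0.08 without PKM2ΔMAC replicate 2 (edgeR adjusted p = 0.86). The ratio of Plau to Plaur in TPM, taken within each library, was 1.17, 1.12 and 1.02 in PKM2FL/FL and 1.65, 1.51 and 2.13 in PKM2ΔMAC. The genotypes did not overlap in this ratio, which was not tested. Its mean was 1.10 ± 0.0775 (SD, n = 3) in PKM2FL/FL and 1.76 ± 0.325 in PKM2ΔMAC.

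The members were also compared by which replicate was lowest within each genotype, and a shared pattern was not tested. In CPM, PKM2ΔMAC replicate 2 was the lowest of the 3 PKM2ΔMAC libraries for 9 of the 10 members, the exception being Timp1, and for 37.0% of all genes tested. In TPM it was the lowest for 7 of the 10, with Mmp2 and Timp3 as further exceptions. In CPM again, PKM2FL/FL replicate 2 was the lowest of its genotype for 5 members (Mmp12, Mmp19, Timp2, Plau and Plaur) and for 34.3% of all genes tested. For these 5, replicate 2 was the lowest library in both genotypes, as it was for 16.5% of all genes tested. The SD of log2(CPM + 0.1) over the 6 libraries was 0.46 for both Plau and Mmp12 and 0.36 for Mmp13. It was 0.26 for Timp2, 0.25 for Mmp19, 0.18 for Mmp14 and Plaur and 0.12 for Mmp2. Timp3 and Timp1 had the lowest, 0.073 and 0.061. Among all genes tested, the SD of Plau was at the 88.4th percentile and that of Timp1 at the 18.8th, so that the set holds variable and steady genes side by side.

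**Figure D3:**
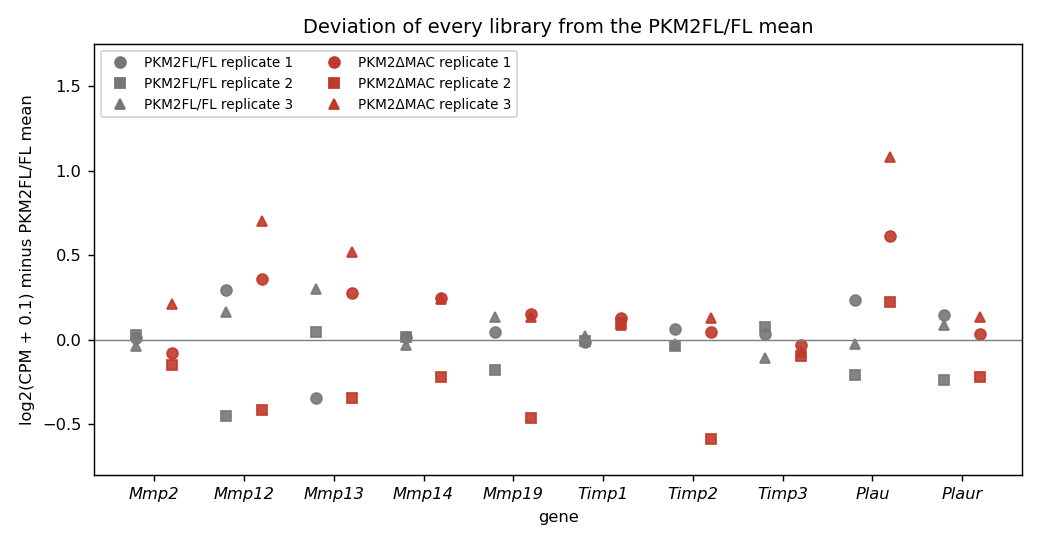
Log2(CPM + 0.1) of each library minus the PKM2FL/FL mean of the gene (y axis) for the 10 genes (x axis), with grey for PKM2FL/FL, red for PKM2ΔMAC and circles, squares and triangles for replicates 1, 2 and 3. The red squares lie lowest of the red points for 9 genes, Timp2 and Mmp19 the most, at -0.59 and -0.46, and all red points of Timp1 lie between 0.09 and 0.13.

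Markers of other cell types also varied between the libraries. The 6 osteoclast markers summed to 417, 257 and 395 CPM in PKM2FL/FL and 451, 155 and 442 CPM in PKM2ΔMAC, nearly all from Atp6v0d2. This 1 gene, and with it the sum, was lowest in replicate 2 of both genotypes. So were Mmp12, Mmp19, Timp2, Plau and Plaur, and 16.5% of all genes tested. Dcstamp and Ocstamp of the same list had higher values in PKM2ΔMAC. Dcstamp had between 0.673 and 1.22 CPM in PKM2FL/FL and between 2.71 and 4.19 CPM in PKM2ΔMAC, where replicate 1 was lowest. Ocstamp had between 0.192 and 0.262 CPM in PKM2FL/FL and between 0.510 and 0.923 CPM in PKM2ΔMAC, with replicate 2 lowest in both genotypes. The genotypes did not overlap for either gene, edgeR called 0 of the 6 osteoclast markers (adjusted p = 0.063 and 0.19 for these genes), 2 had an unadjusted p under 0.05, and DESeq2 called both, higher in PKM2ΔMAC. The 6 endothelial cell markers summed to between 81.7 and 118 CPM in PKM2FL/FL and to 105, 52.3 and 96.9 CPM in PKM2ΔMAC, also with replicate 2 lowest in both. The 8 neutrophil markers summed to 20.3, 34.9 and 48.8 CPM in PKM2FL/FL and 122, 90.1 and 170 CPM in PKM2ΔMAC, without overlap. All 8 had a higher mean in PKM2ΔMAC, although 0 of the 8 were called by edgeR, with 5 at an unadjusted p under 0.05 and 5 called by DESeq2. A log2 fold change above 0 was found for 6 of the 10 members and for 8245 of the 16516 genes tested. Markers of B cells summed to at most 2.56 CPM and those of mast cells and basophils to at most 5.19 CPM in any library. Pax5, a defining transcription factor of B cells, was under 1 CPM in every library. Among the macrophage markers, Itgam was called higher in PKM2ΔMAC (log2 fold change 0.43, edgeR adjusted p = 0.0027), and Adgre1 did not overlap between the genotypes, with PKM2ΔMAC above (log2 fold change 0.26, edgeR adjusted p = 0.24). With Lyz2, 2 of the 8 were called by edgeR, 3 by DESeq2, and 3 had an unadjusted p under 0.05. In CPM, 5 of the 8 (Adgre1, Csf1r, Fcgr1, Cd14 and Itgam) were highest of the 6 libraries in PKM2ΔMAC replicate 2, whereas 3 (Mertk, Cd68 and Lyz2) were lowest there. The shares of all genes tested with such extremes are not given here. The part of these cell types in the members' values was not tested.

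To set proteases against inhibitors within each library, TPM values were summed. The 5 MMPs summed to 717, 621 and 744 TPM in PKM2FL/FL and to 848, 595 and 984 TPM in PKM2ΔMAC. The 3 TIMPs summed to 1238, 1209 and 1191 TPM in PKM2FL/FL and to 1311, 1041 and 1340 TPM in PKM2ΔMAC. In TPM, TIMP transcripts thus outnumbered MMP transcripts in all 6 libraries. The ratio of the MMP to the TIMP sum was 0.57 ± 0.056 (SD, n = 3) in PKM2FL/FL and 0.65 ± 0.082 in PKM2ΔMAC. Which of the 2 sums was larger depended on the unit. In CPM the ratio was 1.04 and 1.18 in PKM2ΔMAC replicates 1 and 3, and between 0.757 and 0.971 in every other library. The genotypes overlapped in the TPM ratio, from 0.51 to 0.62 and from 0.57 to 0.73. Mmp12 made up 39.9% ± 6.88 of the MMP sum in PKM2FL/FL and 42.3% ± 4.56 in PKM2ΔMAC. Mmp14 made up 21.1% and 20.6%, and Mmp13 18.5% in both genotypes. Timp2 made up 67.4% ± 0.923 of the TIMP sum in PKM2FL/FL and 64.0% ± 6.20 in PKM2ΔMAC, where replicate 2 was at 57.0% and the others at 66.6% and 68.5%. These shares were not tested.

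**Figure D4:**
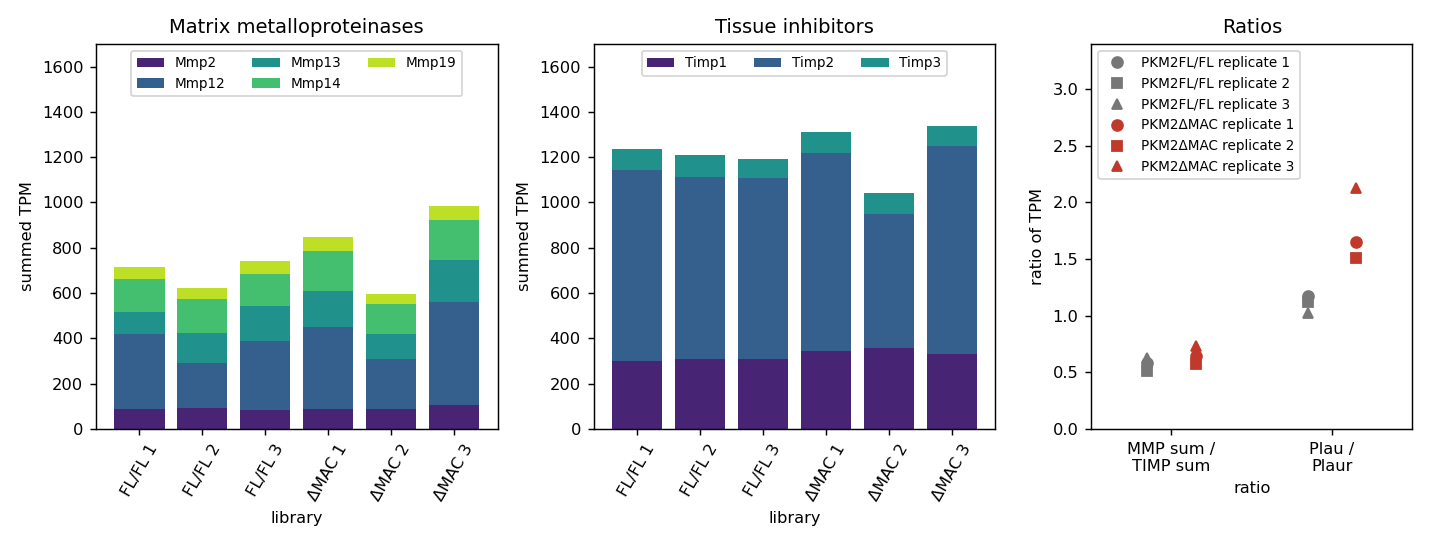
Stacked TPM of the 5 MMPs (left) and the 3 TIMPs (middle) in each library, and the ratios of the MMP to the TIMP sum and of Plau to Plaur in each library (right), in grey for PKM2FL/FL and red for PKM2ΔMAC. The TIMP sums lie between 1041 and 1340 TPM and the MMP sums between 595 and 984 TPM, and the genotypes are separate for the Plau to Plaur ratio but not for the ratio of the sums.

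Other genes of the pathway were counted in 7 lists, and 1 gene was called by edgeR in all of them, against 4 by DESeq2 (Plat, Pcsk7, Adam12 and Etv5) and 0 by limma-trend on TPM. Over all genes tested, edgeR called 0.412%, DESeq2 1.83% and limma-trend on log2(TPM + 1) 0.281%. Of 18 other matrixins, 14 were in the tables and 11 were tested, of which 0 were called by edgeR or DESeq2. At an unadjusted p of 0.05, which 9.83% of all genes tested passed in either direction, 0 of the list were higher and 1 was lower in PKM2ΔMAC. That gene, Mmp17, a membrane-anchored MMP, had 16.9, 18.0 and 16.2 CPM in PKM2FL/FL and 14.4, 14.9 and 13.4 CPM in PKM2ΔMAC, without overlap (log2 fold change -0.26, edgeR adjusted p = 0.31), and was named after its values were seen. The median log2 fold change of the list was 0.28, where that of all genes tested was -0.00021. Mmp9, gelatinase B, had 6.78, 8.43 and 11.5 CPM in PKM2FL/FL and 26.5, 8.16 and 28.8 CPM in PKM2ΔMAC (log2 fold change 1.25, SE 0.53, edgeR adjusted p = 0.54). PKM2ΔMAC replicates 1 and 3 lay above all PKM2FL/FL libraries and replicate 2 among them. Mmp8, the neutrophil collagenase, had 6.27, 9.60 and 12.4 CPM in PKM2FL/FL and 9.67, 26.4 and 10.3 CPM in PKM2ΔMAC, where replicate 2 was the highest. Its edgeR adjusted p was 0.73. Mmp23 had the highest mean TPM of this list, at 67.9 in PKM2FL/FL and 64.4 in PKM2ΔMAC (log2 fold change -0.15, edgeR adjusted p = 0.54). Both Mmp8 and Mmp9 are stored in granules of neutrophils. Mmp8 is also 1 of the 8 neutrophil markers given above, and the other 7 were highest of the 6 libraries in PKM2ΔMAC replicate 3 and lowest of PKM2ΔMAC in replicate 2.

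In the urokinase-plasmin system, 9 of 12 genes were tested, 0 were called by edgeR and 3 had an unadjusted p under 0.05 (2 higher and 1 lower in PKM2ΔMAC, beside 9.83% of all genes tested). Plat, the tissue-type plasminogen activator, had 4.06, 3.08 and 3.82 CPM in PKM2FL/FL and 5.37, 4.88 and 6.95 CPM in PKM2ΔMAC, without overlap (log2 fold change 0.65, SE 0.17, edgeR adjusted p = 0.25, DESeq2 adjusted p = 0.047). Serpinb2, the plasminogen activator inhibitor PAI-2, had 2.83, 2.58 and 2.66 CPM in PKM2FL/FL and 2.79, 4.08 and 5.68 CPM in PKM2ΔMAC, and the libraries overlapped (log2 fold change 0.64, SE 0.24, edgeR adjusted p = 0.44). Lrp1, an endocytic receptor that clears inhibited urokinase, had 718 TPM in PKM2FL/FL and 779 TPM in PKM2ΔMAC (log2 fold change 0.05, edgeR adjusted p = 0.86). The median log2 fold change of the list was 0.05, the same as that of the members to this precision.

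The ADAM and ADAMTS proteases, relatives of the MMPs that shed membrane proteins or cut proteoglycans, held the called gene. Adam12 had 6.12, 6.35 and 6.28 CPM in PKM2FL/FL and 9.40, 11.7 and 9.83 CPM in PKM2ΔMAC, with all PKM2ΔMAC libraries above (log2 fold change 0.72, SE 0.11, edgeR adjusted p = 0.035). PKM2ΔMAC replicate 2 was the highest library for Adam12. Leaving out 1 library other than PKM2ΔMAC replicate 2 ended the call, with log2 fold changes between 0.71 and 0.78 and adjusted p between 0.054 and 0.22, as did the fits on TPM, with log2 fold changes between 0.58 and 0.76 and adjusted p between 0.19 and 0.30, and without PKM2ΔMAC replicate 2 it was 0.014. Adam8, the most abundant of this list, had 558, 562 and 515 CPM in PKM2FL/FL and 584, 623 and 603 CPM in PKM2ΔMAC (log2 fold change 0.15, edgeR adjusted p = 0.38), and Adam9 had a log2 fold change of 0.06 (edgeR adjusted p = 0.68). Adamts10 had a log2 fold change of -0.18 (edgeR adjusted p = 0.61). Of the 13 genes tested, 1 was called higher and 0 lower, 3 (Adam8, Adam12 and Adam17) had an unadjusted p under 0.05, all higher, beside 5.24% of all genes tested in that direction, and the median was -0.0081. Adam17 was named after its values were seen.

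Among the 10 tested activators, brakes and partners of MMPs, 0 were called by edgeR, 1 had an unadjusted p under 0.05, beside 9.83% of all genes tested, and the median was -0.07. Pcsk7, a proprotein convertase of the furin family, had 36.7, 42.9 and 39.8 CPM in PKM2FL/FL and 30.5, 33.5 and 31.7 CPM in PKM2ΔMAC, without overlap (log2 fold change -0.32, SE 0.067, edgeR adjusted p = 0.14, DESeq2 adjusted p = 0.016). Pcsk6 of the same family had a log2 fold change of -0.39 (edgeR adjusted p = 0.65), with PKM2ΔMAC replicate 2 at 5.75 CPM above the other libraries. Bsg, which encodes the MMP inducer CD147, and the tetraspanin gene Cd151 had the highest TPM averaged over all 6 libraries, and log2 fold changes of -0.06 and -0.0059. The 8 cysteine cathepsins and cystatins had 0 calls by edgeR, 0 at an unadjusted p under 0.05 and a median of -0.07. Ctss and Ctsb, with 9901 and 7595 TPM in PKM2FL/FL, were above every member in TPM. PKM2ΔMAC replicate 2 was the lowest PKM2ΔMAC library for 7 of these 8 genes, beside 37.0% of all genes tested. Ctsb was at 9112 CPM there, where the other PKM2ΔMAC libraries had 13546 and 13890 CPM. Ctsl and Ctsz had log2 fold changes of 0.16 and -0.14.

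Of 14 matrix substrates, 0 were called by edgeR, 3 had an unadjusted p under 0.05 (2 higher and 1 lower, beside 9.83% of all genes tested) and the median was 0.08. Spp1, the gene of osteopontin, had 3267, 2840 and 3031 CPM in PKM2FL/FL and 3979, 2201 and 4296 CPM in PKM2ΔMAC (log2 fold change 0.20, SE 0.26, edgeR adjusted p = 0.86), which is the arrangement of Mmp14: replicates 1 and 3 of PKM2ΔMAC above all PKM2FL/FL libraries, and replicate 2 below all. Thbs1 had a log2 fold change of -0.08, Lamb2 of -0.25 and Vcan of 0.37 (edgeR adjusted p = 0.88, 0.33 and 0.51). Of 17 AP-1 and Ets factors, 0 were called by edgeR, 4 had an unadjusted p under 0.05 (3 higher and 1 lower, beside 9.83% of all genes tested) and the median was 0.05. Etv5, an Ets factor of the PEA3 group, had 35.7, 38.0 and 32.0 CPM in PKM2FL/FL and 41.8, 47.2 and 46.1 CPM in PKM2ΔMAC, without overlap (log2 fold change 0.35, SE 0.074, edgeR adjusted p = 0.14, DESeq2 adjusted p = 0.011). Fosl1, an AP-1 subunit at between 2.57 and 3.86 CPM, had a log2 fold change of 0.37 (edgeR adjusted p = 0.49). Atf3 and Spi1, with the highest TPM averaged over all 6 libraries, had log2 fold changes of 0.02 and 0.01.

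**Figure D5:**
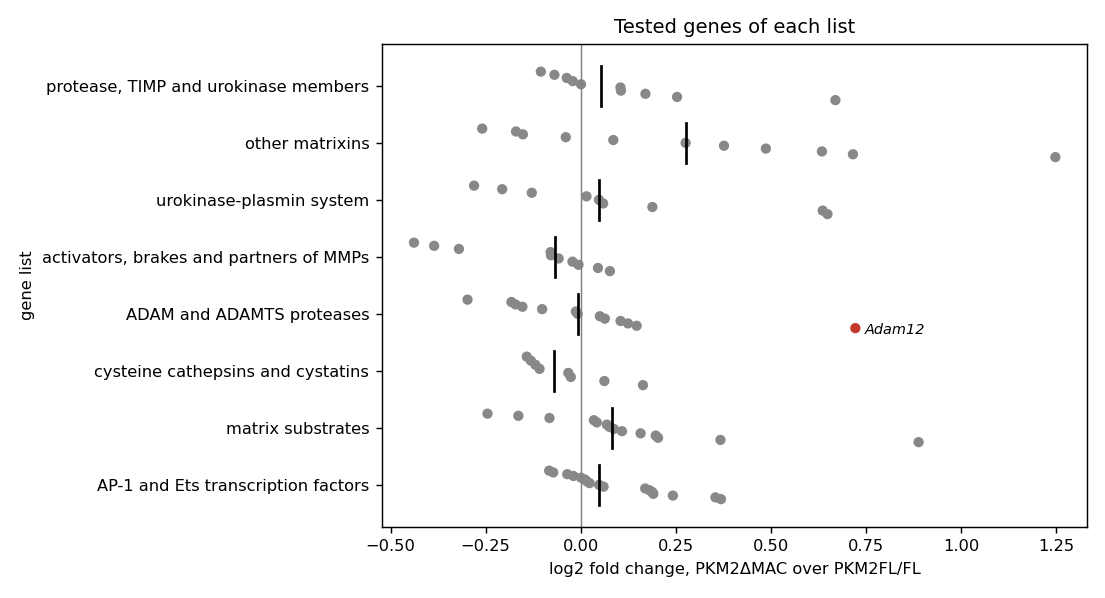
Log2 fold changes of PKM2ΔMAC over PKM2FL/FL from edgeR (x axis) for the 10 members (top) and the tested genes of the 7 lists, 1 point for each gene, with black lines at the medians and red for an adjusted p under 0.05. Adam12 at 0.72 is the sole red point, and the medians lie between -0.07 and 0.28.

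Without PKM2ΔMAC replicate 2 edgeR called 1.77% of all genes tested in place of 0.412%, and 9 genes of the 7 lists in place of 1: Mmp9 (log2 fold change 1.64), Plat (0.75), Mrc2 (0.29), Adam12 (0.62), Spp1 (0.44) and Sparc (0.19) higher in PKM2ΔMAC, and Pcsk6 (-0.74), Pcsk7 (-0.36) and Adamts10 (-0.30) lower. Mrc2, a receptor that takes up collagen, and Sparc, a collagen-binding matrix protein, were named after their values were seen. That fit called 1 of the 10 members, Mmp14. It leaves 2 libraries in 1 group, and the difference between the fits was not tested.

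Plau varied most over the libraries, and the 3 genes with the most similar pattern were Plat, Qpct and Tmem26, at Euclidean distances of 0.29, 0.31 and 0.31 between centred log2(CPM + 0.1) values over the 6 libraries, among 13076 genes with a mean of at least 1 CPM. Qpct, which encodes glutaminyl cyclase, had 20.1, 15.5 and 18.5 CPM in PKM2FL/FL and 24.1, 19.1 and 30.6 CPM in PKM2ΔMAC. As for Plau, PKM2ΔMAC replicate 3 was the highest library and PKM2FL/FL replicate 2 the lowest, and its edgeR adjusted p was 0.51. Tmem26 had between 2.42 and 2.60 CPM in PKM2FL/FL and 4.18, 2.68 and 5.34 CPM in PKM2ΔMAC (edgeR adjusted p = 0.41). Of the other members, Mmp12 was nearest to Plau at a distance of 0.67, which 144 genes undercut, and Plaur was at 0.90.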

How the data were processed

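RNA of 3 PKM2FL/FL and 3 PKM2ΔMAC BMDM cultures, with 1 library for each numbered mouse, was sequenced from total RNA with a SMARTER kit. Raw read counts for each gene symbol, not normalized, and TPM values of the same libraries were deposited by the authors. The submitters' processing notes name FastQC 0.12.1, Trim Galore 0.6.10, HISAT2 2.2.1, SAMtools 1.19.2, Subread 2.0.6 and the build mm10, which is GRCm38. The strandedness of the counting is not given in the sources used here. Columns were matched to samples by genotype and mouse number, and 0 were left over. Where reads of a gene's copies or overlapping exons were shared, the counting could have split them.

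Counts were tested with edgeR 4.0.16 (R 4.3.3): filterByExpr kept 16516 genes, TMM scaling, genotype as the only term, robust quasi-likelihood, and Benjamini-Hochberg adjustment over all genes tested, with calls at an adjusted p under 0.05. Intervals are 95%. CPM are counts scaled with TMM factors, and TPM served for levels between genes. Single genes were also compared by an exact permutation test of log2(CPM + 0.1). No list was tested as a set. The fits were tested on simulated data. The comparison was repeated with DESeq2 1.42.0, upper-quartile and RLE scaling, no filter or at least 10 counts in every library, down-sampling, a replicate block, non-robust estimation, limma-trend (limma 3.58.1) on log2(TPM + 1) or log2(TPM + 0.1) for genes with a mean of at least 1 TPM or with no filter, and each library left out in turn. Their use on the lists was added after the data were seen.

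The members, the 7 lists (other matrixins; urokinase-plasmin system; activators, brakes and partners of MMPs; ADAM and ADAMTS proteases; cysteine cathepsins and cystatins; matrix substrates; AP-1 and Ets transcription factors) and the marker lists were chosen with earlier results of these data known. Named genes are the 10 members, Pkm and Lyz2 and, from each list, those with an adjusted p under 0.05, the 2 with the highest mean TPM and the 2 with the largest fold change among genes with a mean of at least 1 CPM. The 3 genes nearest to the most variable member were also named. Some genes that this rule or the marker lists take are not reported here. Markers named from the marker lists were chosen after their values were seen. Gene positions came from GENCODE M21 and promoters from RefSeq. P-values measure the spread between these cultures.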

Additional observations from a re-analysis of the deposited data

How the results depend on the processing

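Over 17 alternatives, 147 of 170 fold changes of the members kept their direction and stayed uncalled, 22 turned and 1, that of Mmp14 without PKM2ΔMAC replicate 2, became a call, so the members called were 0, or 1 in that fit. The number of genes called was 68 with all libraries, 302 with DESeq2, 120 with no filter on low counts, 41, 34 and 36 in the limma-trend fits on log2(TPM + 1), log2(TPM + 0.1) and log2(TPM + 1) with no filter, and between 22 and 299 with 1 library left out. In the 7 lists 1 gene was called, against 4 with DESeq2, 2 with no filter, 0 in each of the TPM fits and 0 to 9 with 1 library left out. The fits on TPM moved the median of all genes by up to 0.07 (log2) and, at an unadjusted p under 0.05, the numbers higher and lower from 865 and 759 to 1687 and 267. The log2 fold change of Mmp2 was -0.00067 with no filter and -0.0039 after down-sampling, and those of Mmp19, Timp3 and Plaur in the TPM fits were 0.0152, 0.0048 and 0.053 with a pseudocount of 1, with or without the filter, and 0.0151, 0.0049 and 0.054 with 0.1. Leaving out 1 library gave a range from -0.12 to 0.072 for Mmp2, from -0.012 to 0.51 for Mmp12, from -0.025 to 0.38 for Mmp13, from 0.026 to 0.25 for Mmp14, from -0.14 to 0.14 for Mmp19, from 0.093 to 0.12 for Timp1, from -0.24 to 0.088 for Timp2, from -0.12 to -0.033 for Timp3, from 0.42 to 0.85 for Plau and from -0.13 to 0.076 for Plaur. The causes were not tested. CPM in place of TPM gave ratios of the MMP to the TIMP sum of 0.886 in PKM2FL/FL and 1.05 in PKM2ΔMAC, since CPM are not divided by length. On the same scale the ratio of Plau to Plaur was 0.999 in PKM2FL/FL and 1.59 in PKM2ΔMAC, and the shares of Mmp12 were 53.8% and 56.4%. Whether replicate numbers paired the samples was not settled. Correlations of deviations from the genotype means were 0.080, 0.14 and 0.019 for same-numbered samples, not all over 0.1. As a hint from the data, 5 of the 6 samples correlated best with their own number, PKM2ΔMAC replicate 3 correlating best with PKM2FL/FL replicate 1 (0.067). Of the 6 correlations between other numbers, 5 were below 0. The deviations sum to 0 within a genotype, so that correlations above 0 force others below 0. A replicate block gave 82 genes called, 0 members and a log2 fold change of -0.0071 for Mmp2, and changed no other direction or call among the members. Each member had at least 1842 counts in a library, whereas 3 mice per genotype left intervals as wide as -0.65 to 1.16 for Mmp12.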
